A study of Mus musculus with 8 samples.

Results

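Expression of 10 genes of Wnt signalling was followed in whole mouse testes that carried floxed Dmrt1, with or without a Cre driver. The genes were Rspo1, Wnt4, Wnt6, Wnt9a, Fzd1, Fzd2, Sfrp1, Sfrp4, Dkk3 and Lef1. They were found by symbol, and 22 of the 45101 probe sets on the array carry these symbols. One probe set per gene, the one with the highest mean over the 8 arrays, stands for the gene unless another is named. All 10 genes were among the 13802 of 18194 genes that reached a log2 intensity of 4, taken here as the floor of measurement, on at least 2 arrays.

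The study asked what the loss of Dmrt1, a transcription factor of Sertoli cells and germ cells, does to the postnatal testis. All animals were males at postnatal day 28 on a mixed C57BL6/6J and 129 background, and all were homozygous for floxed Dmrt1. The control group had no Cre (n = 2), another group carried Dhh-Cre (n = 2) and the last carried Sf1-Cre (n = 4). The series describes both promoters as Sertoli cell-specific. Sf1 is another name of Nr5a1, which is also known from Leydig cells. The labels do not say whether an array held RNA of 1 animal or of several, so the p-values below measure the spread between these samples.

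Wnt ligands bind Frizzled receptors together with an LRP co-receptor, which lets beta-catenin accumulate and act with TCF and LEF proteins on target genes. R-spondins amplify this response through LGR receptors, by keeping Frizzled receptors at the cell surface. Secreted Frizzled-related proteins bind Wnt ligands outside the cell. In the fetal gonad RSPO1 and WNT4 are known for ovarian development, where they act against the testis programme, and DMRT1 is known for keeping Sertoli cells from taking on features of granulosa cells.

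Dmrt1 itself was at log2 8.50 and 8.76 in the controls, 7.10, 7.89, 7.63 and 7.53 with Sf1-Cre, and 10.43 and 9.94 on arrays labelled Dhh-Cre. It was lower with Sf1-Cre (-1.09 ± 0.25 log2, SE, limma adjusted p = 0.00375) and higher on arrays labelled Dhh-Cre (1.55 ± 0.28, limma adjusted p = 0.00120). Dmrt1 is a gene of germ cells as well, and the series describes both promoters as Sertoli cell-specific. Its level in whole testis therefore cannot decide on the Dhh-Cre label. As deposited it does not bear that label out, but the sign of the difference from control depends on scaling. With 13 housekeeping genes as the reference it was 0.22 (limma adjusted p = 0.479). With peritubular and endothelial marker genes as the reference it was -1.51 (limma adjusted p = 0.00137). Whether the single Dmrt1 probe set lies outside the deleted part was not given in the sources used here. Arrays correlated at r = 0.980 to 0.994 within groups, 0.804 to 0.887 between control and mutant arrays, and 0.954 to 0.978 between the mutant groups. The ratio of 3' to 5' Actb signal was 4.44 and 4.89 in controls and 9.45 to 13.6 in mutants. That of Gapdh did not rise, with 3.58 and 2.96 in controls and 1.67 to 3.30 in mutants. Spink8, an epididymal gene, was at log2 10 or above in Dhh-Cre 1, Sf1-Cre 1 and Sf1-Cre 3.

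Marker lists of cell types were read as well, with counts to be set against the shares of all tested genes. These shares were 46.6% called higher and 33.2% lower with Sf1-Cre, and 49.1% and 30.5% on arrays labelled Dhh-Cre. The Sertoli cell counts with Sf1-Cre were near them. All 12 spermatid markers fell with Sf1-Cre and 11 of 12 fell on arrays labelled Dhh-Cre, and their summed intensity was 66105 to 74258 in controls against 1759 to 6882 and 1497 to 12611. Macrophage markers rose 8 of 8 in both mutants (summed intensity 856 to 910 in controls, 16699 to 19644 with Sf1-Cre, 11173 to 11556 on arrays labelled Dhh-Cre). All 7 tested fibroblast markers rose in both (1905 to 1964 in controls, 13641 to 15580, and 14594 to 18813), as did all 7 tested endothelial markers (238 to 272, 1170 to 2114, and 1775 to 1896), although the defining endothelial genes Pecam1 and Cdh5 stayed under the floor on every array. Of 5 tested Leydig markers, 5 rose with Sf1-Cre and 4 on arrays labelled Dhh-Cre (5155 to 5727, 19482 to 27236, and 18088 to 21872). Of 9 tested granulosa cell markers, 9 and 8 rose (3954 to 4111, 15727 to 19839, and 13367 to 14591). Of 11 tested Sertoli cell markers, 6 rose and 3 fell with Sf1-Cre and 8 rose on arrays labelled Dhh-Cre (17309 to 17983, 16140 to 21692, and 29271 to 30445). Of 7 peritubular markers, 5 rose and 1 fell, and 6 rose and 1 fell (5898 to 5948, 6171 to 7006, and 9210 to 10749). Of 9 spermatocyte markers 5 fell with Sf1-Cre, and 2 rose and 4 fell on arrays labelled Dhh-Cre (17007 to 18496, 7139 to 14270, and 11151 to 14137). Of 7 tested spermatogonial markers, 3 rose and 4 fell, and 3 rose and 2 fell (5062 to 5140, 2625 to 3497, and 4373 to 5218). Of 4 tested epididymal markers, 1 rose and 1 fell in each mutant (60 to 171, 99 to 4411, and 77 to 3252). The part of these cell types in the Wnt values was not tested, and in whole-testis RNA fewer cells of a type and less RNA per cell cannot be told apart.

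Promoter sequence is shown for 2 of the ligands, Rspo1 and Wnt4, and for the 2 members with letters of the TCF/LEF motif near a start site. The measured genes can so be read beside their regulatory DNA. RefSeq windows of the GRCm38.p6 build, from 250 bases before to 50 after the start, matched 6 of the 10 genes with 9 windows. Those of Fzd2, Sfrp1, Sfrp4 and Dkk3 are not used here. Shown are chr4:124986180-124986399 (plus strand) for Rspo1, chr4:137277385-137277634 (plus strand) for Wnt4, chr5:4758387-4758466 (minus strand) for Fzd1 and chr3:131156094-131156193 (plus strand) for 1 of the 4 Lef1 windows, whose start lies inside the gene. All lie before the annotated start, and capitals mark the letters TCAAAG, which are CTTTGA on the other strand.
Rspo1: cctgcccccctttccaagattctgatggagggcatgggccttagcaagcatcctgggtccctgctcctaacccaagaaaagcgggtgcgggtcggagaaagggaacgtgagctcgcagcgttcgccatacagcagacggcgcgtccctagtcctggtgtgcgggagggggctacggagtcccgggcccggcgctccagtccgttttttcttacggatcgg
Wnt4: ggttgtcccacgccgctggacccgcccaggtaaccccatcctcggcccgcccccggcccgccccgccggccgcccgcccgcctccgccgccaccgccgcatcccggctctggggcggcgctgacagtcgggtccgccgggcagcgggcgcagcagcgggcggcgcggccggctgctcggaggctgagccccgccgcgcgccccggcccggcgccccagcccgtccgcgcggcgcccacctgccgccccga
Fzd1: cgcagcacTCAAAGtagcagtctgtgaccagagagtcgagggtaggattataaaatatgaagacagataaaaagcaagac
Lef1: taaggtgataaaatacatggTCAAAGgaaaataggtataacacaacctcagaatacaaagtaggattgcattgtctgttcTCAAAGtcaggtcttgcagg
The stretches of Rspo1 and Wnt4 are rich in G and C (63.2% and 85.2%), and those of Fzd1 (42.5%) and Lef1 (37.0%) are poorer. The TCF/LEF letters CTTTGA, searched on both strands, stood in 2 of the 9 windows, at positions -242 to -237 for Fzd1 and at -180 to -175 and -120 to -115 for Lef1, with -1 as the last base before the start. They stand in 16.0% of all 32851 windows of that length. The letters TACANTGT, from the DMRT1 motif, and CAAGGTCA, from the NR5A motif, stood in 0 of the 9 windows, against 2.7% and 1.6% of all windows. These matches describe letters in a window and not sites in use.

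Against controls, 9 of the 10 genes were higher and 1, Lef1, was lower in each mutant group at a limma adjusted p under 0.05. Changes were common: 46.6% of the 13802 tested genes were called higher and 33.2% lower with Sf1-Cre, and 49.1% higher and 30.5% lower on arrays labelled Dhh-Cre. Control means were at or above the floor for 3 members, Wnt6, Fzd2 and Lef1. The other 7 entered the test through the mutant arrays, and the list was chosen with earlier results of these data known. The count, and the median and non-overlap given next, are therefore descriptions and do not set the members apart from other genes. The median log2 difference of the members was 2.68 with Sf1-Cre and 3.23 on arrays labelled Dhh-Cre, or 2.03 and 2.67 with low values set to the floor. Over all tested genes it was 0.34 and 0.54. For 9 members every mutant array lay above both controls and for 1 below them, while 50.0% of all tested genes lay wholly above and 36.0% wholly below with Sf1-Cre, and 56.0% and 35.1% on arrays labelled Dhh-Cre. Both comparisons share the control arrays. The direction of the group depends on scaling. With housekeeping genes as the reference 6 members were higher with Sf1-Cre and 9 on arrays labelled Dhh-Cre. With peritubular and endothelial genes as the reference 3 were higher and 5 lower with Sf1-Cre, and 2 and 2 on arrays labelled Dhh-Cre. Of that reference, 6 of 9 endothelial and 2 of 7 peritubular genes were under the floor in both controls.

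**Figure D1:**
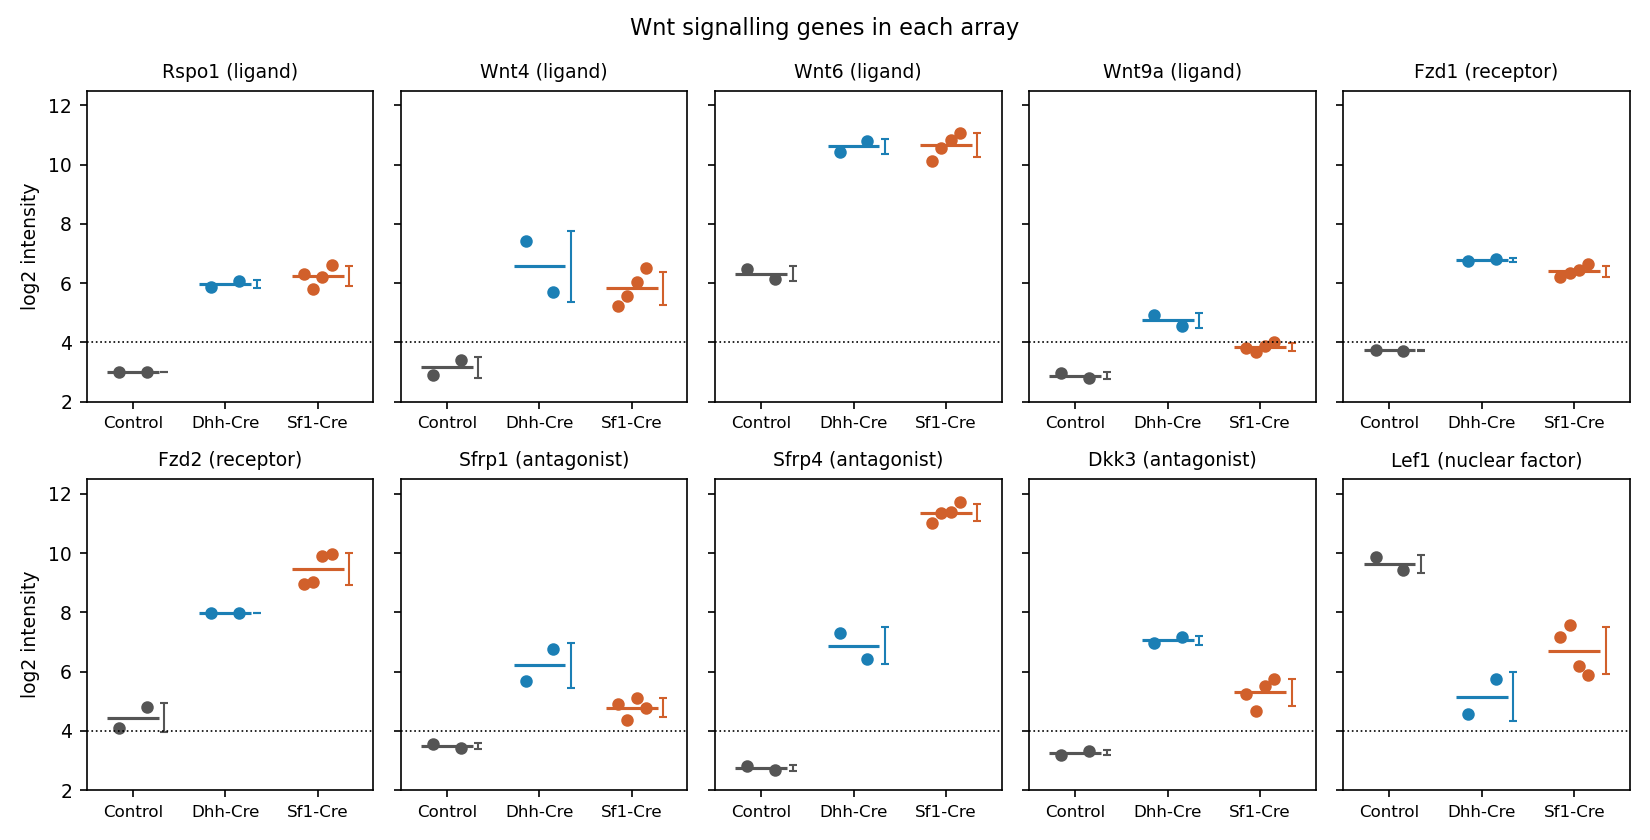
Log2 intensity of the 10 genes on each of the 8 arrays, with points for arrays, a horizontal bar for each group mean, a vertical bar for the SD and a dotted line at the floor of log2 4. Lef1 is the member with its highest values in the controls (9.42 and 9.86), and the Sfrp4 values with Sf1-Cre (11.02 to 11.71) stand apart from those labelled Dhh-Cre (6.43 and 7.32); the levels are as deposited, and other scalings turn several members' differences from control.

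Among ligands, Rspo1 was at log2 3.00 and 3.01 in the controls, 5.88 and 6.07 on arrays labelled Dhh-Cre, and 6.30, 5.79, 6.21 and 6.61 with Sf1-Cre. Both controls were under the floor, every mutant array was above it, and the mutant groups overlapped. The difference was 3.23 ± 0.22 log2 (SE, limma adjusted p = 6.38e-06), at least 4.68-fold higher, with Sf1-Cre. It was 2.97 ± 0.26 (limma adjusted p = 2.33e-05), at least 3.93-fold higher, on arrays labelled Dhh-Cre. A fold with "at least" sets the brighter mean against the floor.

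Wnt4, the ligand known for female gonad and kidney development, was at log2 2.91 and 3.40 in the controls, 7.42 and 5.71 on arrays labelled Dhh-Cre, and 5.23, 5.55, 6.03 and 6.51 with Sf1-Cre. The controls lay below every mutant array, and the widest gap within a group was between the arrays labelled Dhh-Cre (6.57 ± 1.21, SD, n = 2). The gene was at least 3.55-fold higher with Sf1-Cre (2.68 ± 0.51 log2, limma adjusted p = 0.00153) and at least 5.93-fold higher on arrays labelled Dhh-Cre (3.42 ± 0.59, limma adjusted p = 0.000864). A second Wnt4 probe set gave 1.70 and 2.04.

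Wnt6, a ligand known from several epithelia, was at log2 6.49 and 6.13 in the controls, 10.43 and 10.80 on arrays labelled Dhh-Cre, and 10.13, 10.57, 10.84 and 11.08 with Sf1-Cre. All arrays were above the floor and the mutant groups overlapped. Wnt6 was 20.4-fold higher with Sf1-Cre (4.35 ± 0.27 log2, limma adjusted p = 4.29e-06) and 19.8-fold higher on arrays labelled Dhh-Cre (4.30 ± 0.32, limma adjusted p = 1.18e-05). A second probe set gave 2.67 and 2.85.

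Wnt9a, a ligand known from joint and skeletal development, was low throughout. Its log2 values were 2.97 and 2.79 in the controls, 4.93 and 4.56 on arrays labelled Dhh-Cre, and 3.82, 3.67, 3.89 and 4.02 with Sf1-Cre. The 3 groups did not overlap, but 3 of the 4 Sf1-Cre arrays were under the floor. In the arrays labelled Dhh-Cre it was at least 1.68-fold higher (1.87 ± 0.19 log2, limma adjusted p = 5.62e-05). With Sf1-Cre the difference of 0.97 ± 0.17 (limma adjusted p = 0.000896) lay between means both under the floor, so no fold is given. It became 0.00 when values under the floor were set to it and -0.40 with housekeeping genes as the reference. A second Wnt9a probe set was under the floor on every array and was not tested.

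Both Frizzled receptors were higher in both mutants. Fzd1 was at log2 3.74 and 3.72 in the controls, 6.74 and 6.82 on arrays labelled Dhh-Cre, and 6.20, 6.34, 6.45 and 6.64 with Sf1-Cre. The controls were just under the floor and each mutant group was tight. Fzd1 was at least 5.31-fold higher with Sf1-Cre (2.68 ± 0.16 log2, limma adjusted p = 2.94e-06) and at least 6.87-fold higher on arrays labelled Dhh-Cre (3.05 ± 0.18, limma adjusted p = 4.92e-06). A second Fzd1 probe set was under the floor on every array and was not tested. Its means were 3.02 in the controls, 3.10 on arrays labelled Dhh-Cre and 3.13 with Sf1-Cre.

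Fzd2 was at log2 4.10 and 4.80 in the controls, 7.97 on both arrays labelled Dhh-Cre, and 8.96, 9.02, 9.89 and 9.97 with Sf1-Cre. The 3 groups were ordered without overlap, with Sf1-Cre highest. The gene was 32.1-fold higher with Sf1-Cre (5.01 ± 0.35 log2, limma adjusted p = 7.20e-06). On arrays labelled Dhh-Cre it was 11.5-fold higher (3.52 ± 0.41, limma adjusted p = 9.95e-05). Its further probe sets were under the floor on every array and were not tested. Their means were 1.99 and 2.36 in the controls, 2.76 and 2.67 on arrays labelled Dhh-Cre, and 3.64 and 3.08 with Sf1-Cre.

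**Figure D2:**
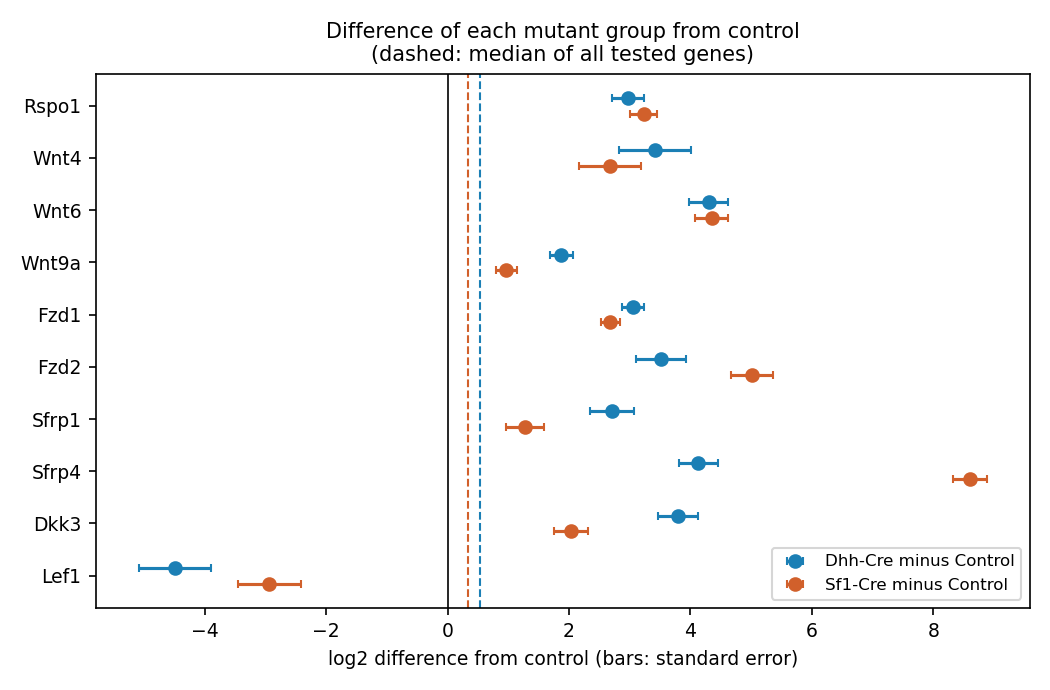
Log2 difference of each member from control, with bars for the SE from limma, for Sf1-Cre and for the arrays labelled Dhh-Cre, which share the 2 control arrays; dashed lines mark the medians of all tested genes (0.34 and 0.54). Most members entered the test through the mutant arrays, so their place beside these medians is a description. As deposited, 9 members lie above 0 and Lef1 lies below it in both comparisons. With housekeeping genes as the reference Wnt9a and Sfrp1 lie below 0 with Sf1-Cre. More members do so with peritubular and endothelial genes as the reference.

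The 3 antagonists were all higher in both mutants, to unequal degrees. Sfrp4, a secreted Frizzled-related protein, was at log2 2.81 and 2.68 in the controls, 7.32 and 6.43 on arrays labelled Dhh-Cre, and 11.02, 11.35, 11.37 and 11.71 with Sf1-Cre. The groups were far apart and each was tight by comparison. With Sf1-Cre the gene was at least 165-fold higher (8.61 ± 0.28 log2, limma adjusted p = 4.41e-07). In the arrays labelled Dhh-Cre it was at least 7.35-fold higher (4.13 ± 0.32, limma adjusted p = 1.45e-05).

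Sfrp1, another protein of that family, was at log2 3.57 and 3.43 in the controls, 5.68 and 6.75 on arrays labelled Dhh-Cre, and 4.90, 4.36, 5.10 and 4.77 with Sf1-Cre. The groups were ordered the other way round from Sfrp4, with the arrays labelled Dhh-Cre highest and no overlap. It was at least 4.65-fold higher on arrays labelled Dhh-Cre (2.71 ± 0.36 log2, limma adjusted p = 0.000216) and at least 1.72-fold higher with Sf1-Cre (1.28 ± 0.31, limma adjusted p = 0.00579). The Sf1-Cre value did not pass when low values were set to the floor (0.78, limma adjusted p = 0.0543), and was -0.09 with housekeeping genes as the reference. Of the 2 further tested Sfrp1 probe sets, one passed with Sf1-Cre (0.93) and the other did not (-0.11, limma adjusted p = 0.621), while both were higher on arrays labelled Dhh-Cre (2.01 and 1.11).

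Dkk3, a secreted protein of the Dickkopf family that is not a typical LRP antagonist, was at log2 3.20 and 3.32 in the controls, 6.95 and 7.16 on arrays labelled Dhh-Cre, and 5.26, 4.67, 5.51 and 5.75 with Sf1-Cre. As with Sfrp1, the arrays labelled Dhh-Cre were highest and the groups did not overlap. The gene was at least 8.30-fold higher on arrays labelled Dhh-Cre (3.79 ± 0.33 log2, limma adjusted p = 2.30e-05) and at least 2.46-fold higher with Sf1-Cre (2.04 ± 0.28, limma adjusted p = 0.000267). With housekeeping genes as the reference the Sf1-Cre value was 0.67 and did not pass (limma adjusted p = 0.0736). A second probe set gave 3.07 and 0.96.

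Lef1, the DNA-binding partner of beta-catenin, was the member that fell. It was at log2 9.86 and 9.42 in the controls, 4.57 and 5.74 on arrays labelled Dhh-Cre, and 7.16, 7.58, 6.18 and 5.90 with Sf1-Cre. Both controls were above every mutant array and all values were above the floor. The gene was 7.65-fold lower with Sf1-Cre (-2.94 ± 0.52 log2, limma adjusted p = 0.00107) and 22.4-fold lower on arrays labelled Dhh-Cre (-4.49 ± 0.60, limma adjusted p = 0.000222). A second probe set, at 4.96 and 4.86 in the controls and under the floor on every mutant array, gave -2.27 and -2.84. Lef1 stayed lower with housekeeping genes as the reference (-4.31 and -5.82) and with peritubular and endothelial genes (-6.25 and -7.55). The spermatid markers named above moved in the same direction, and their part in the Lef1 values was not tested.

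Of the 22 probe sets of the 10 genes 6 stayed low, all further ones of Wnt9a, Fzd1, Fzd2 and Sfrp1, and 16 were tested. With Sf1-Cre 13 were higher, 2 were lower and 1 did not pass, and on arrays labelled Dhh-Cre 14 were higher and 2 lower. Over all 22539 tested probe sets 45.8% were called higher and 32.3% lower with Sf1-Cre, and 49.0% and 29.3% on arrays labelled Dhh-Cre. Both lower probe sets were those of Lef1. Between the mutants 3 were higher and 6 lower with Sf1-Cre, against 10.4% and 11.6% of all tested probe sets.

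The mutant groups were also compared directly. With Sf1-Cre, Fzd2 and Sfrp4 were higher and Wnt9a, Sfrp1 and Dkk3 were lower than on arrays labelled Dhh-Cre, while Rspo1, Wnt4, Wnt6, Fzd1 and Lef1 did not pass. Of all tested genes 12.9% were called higher and 11.8% lower in this comparison, against 2 and 3 of the 10 members. The median difference was -0.16 for the members and 0.02 for all tested genes. This contrast depends less on the reference than those with control: housekeeping genes moved all values by -0.04 and peritubular and endothelial genes by -0.24. With the latter reference Wnt6 changed sign (-0.20) and Lef1 newly passed (1.31, limma adjusted p = 0.0468).

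Sfrp4 differed most, by 4.48 ± 0.28 log2 (95% interval 3.84 to 5.12, limma adjusted p = 8.55e-05), 22.4-fold higher with Sf1-Cre. Fzd2 was 2.81-fold higher (1.49 ± 0.35, limma adjusted p = 0.0206). Leaving out Dhh-Cre 1 or Dhh-Cre 2 leaves 1 array in that group, assumed to vary like the others. The Fzd2 difference was then 1.49 in both cases and did not pass (limma adjusted p = 0.114 and 0.0866), while Sfrp4 passed without each of the 8 arrays.

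Dkk3 was 3.38-fold lower with Sf1-Cre (-1.76 ± 0.28 log2, limma adjusted p = 0.00507), and its second probe set gave -2.11. Sfrp1 was 2.70-fold lower (-1.43 ± 0.31, limma adjusted p = 0.0154), with -1.07 and -1.22 for its further tested probe sets. Without Dhh-Cre 2, the array with the higher Sfrp1 value, that difference was -0.90 and did not pass (limma adjusted p = 0.0807). Wnt9a was at least 1.68-fold lower (-0.90 ± 0.17, limma adjusted p = 0.00848), and without Dhh-Cre 1 the difference was -0.72 (limma adjusted p = 0.0809). Leaving out the 3 arrays high in Spink8 leaves 1 array labelled Dhh-Cre and 2 with Sf1-Cre. The differences were then -0.72 for Wnt9a, 1.53 for Fzd2 and -1.95 for Dkk3, which did not pass (limma adjusted p = 0.205, 0.146 and 0.0766). With Sf1-Cre the summed Sertoli cell, peritubular and spermatogonial marker intensities were lower, and the granulosa cell and macrophage sums higher, than on every array labelled Dhh-Cre. Of all tested genes 12.9% were called higher and 11.8% lower between the mutants. Of the tested markers, 8 of 11 Sertoli cell and 4 of 7 peritubular ones were called lower. Higher were 6 of 9 granulosa cell and 4 of 8 macrophage markers, and of 7 spermatogonial ones 2 were higher and 3 lower. Their part in these differences was not tested.

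For the other 5 members the intervals bound what could have been missed. The difference between the mutants was 0.25 for Rspo1 (95% interval -0.26 to 0.77, limma adjusted p = 0.449), 0.04 for Wnt6 (-0.59 to 0.68, limma adjusted p = 0.927) and -0.74 for Wnt4 (-1.92 to 0.44, limma adjusted p = 0.329). Without Dhh-Cre 1 the Wnt4 value was 0.12, so its sign rests on that array. Fzd1 gave -0.37 (-0.73 to -0.01, limma adjusted p = 0.121) and Lef1 gave 1.55 (0.34 to 2.76, limma adjusted p = 0.0659), both without overlap of the groups. Lef1 passed without Sf1-Cre 4 (1.82, limma adjusted p = 0.0324). In the fit of all probe sets the second Lef1 probe set passed (0.56, limma adjusted p = 0.0258), between means both under the floor. Groups did not overlap for 3 members higher and 4 lower with Sf1-Cre, against 24.5% and 23.2% of all tested genes.

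**Figure D3:**
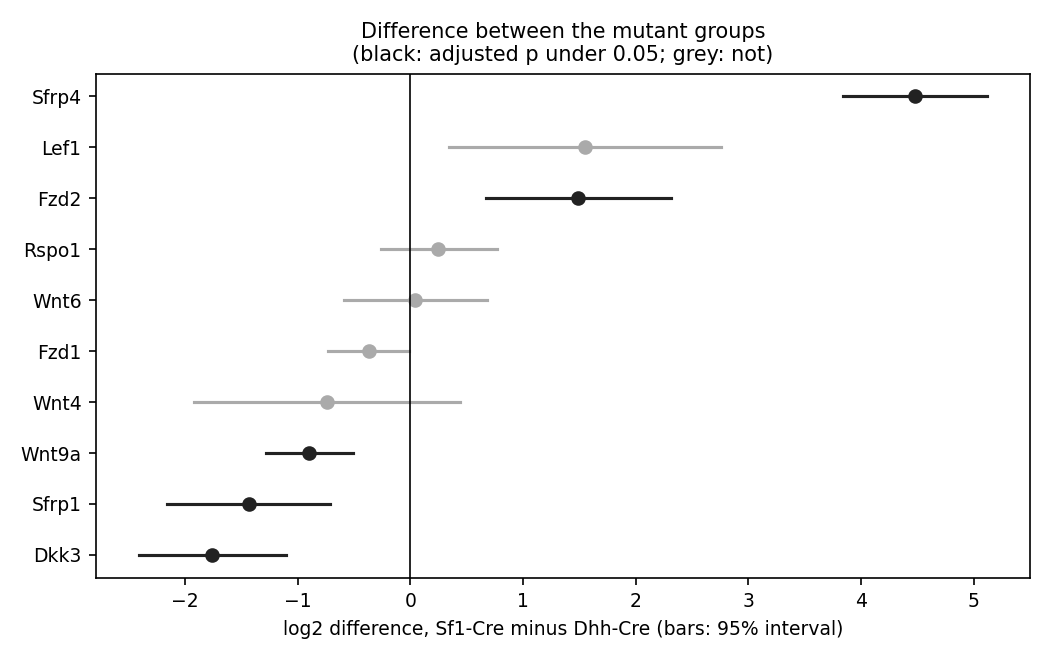
Log2 difference of each member between Sf1-Cre and the arrays labelled Dhh-Cre, with 95% intervals from limma, in black where the limma adjusted p was under 0.05 and in grey otherwise. Sfrp4 (4.48) and Fzd2 (1.49) were higher and Dkk3 (-1.76), Sfrp1 (-1.43) and Wnt9a (-0.90) lower with Sf1-Cre; neither reference set turned the sign of any of these 5.

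A wider list of 88 other genes of the pathway was read by role. On the array were 86, of which 54 were tested and 32 were low. With Sf1-Cre 37 rose and 8 fell, where 46.6% of all tested genes were called higher and 33.2% lower. On arrays labelled Dhh-Cre 38 rose and 5 fell, where 49.1% of all tested genes were called higher and 30.5% lower. Control means were at or above the floor for 39 of the 54, and the others entered the test through the mutant arrays, so these counts are a description. The median log2 difference of the 54 genes was 1.08 with Sf1-Cre and 1.59 on arrays labelled Dhh-Cre. With no filter it was 0.20 and 0.57 over the 86 genes, and with housekeeping genes as the reference it was -0.29 and 0.26 over the 54. With housekeeping genes as the reference 16 were higher and 23 lower with Sf1-Cre and 16 and 17 on arrays labelled Dhh-Cre, so the predominance of rising genes depends on scaling. With peritubular and endothelial genes it was 2 and 47, and 1 and 41.

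Of 20 further ligand genes on the list 17 stayed low. Wnt5a, a ligand known for signalling without beta-catenin, was under the floor in the controls and rose at least 1.92-fold with Sf1-Cre and at least 2.12-fold on arrays labelled Dhh-Cre. Wnt5b rose 2.77-fold and 2.63-fold. Wnt2 fell from a control mean just above the floor to means under it, at least 1.17-fold in each mutant. Both genes of ligand release rose: Wls, which carries Wnt proteins to the cell surface, was at log2 3.23 in the controls and at least 16.6-fold higher with Sf1-Cre (4.83 ± 0.21, limma adjusted p = 7.88e-07), and at least 9.29-fold higher on arrays labelled Dhh-Cre (3.99 ± 0.24). Porcn, the enzyme that attaches the lipid of Wnt proteins, rose by 1.42 and 2.24 log2.

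The counts by role below are to be read against the same shares of all tested genes (46.6% higher and 33.2% lower with Sf1-Cre, 49.1% and 30.5% on arrays labelled Dhh-Cre), and with so few genes a role they are descriptions. Of 13 tested receptor genes, 9 rose and 2 fell with Sf1-Cre, and 9 rose and 1 fell on arrays labelled Dhh-Cre. Lgr4, an R-spondin receptor, was above the floor in every group and was 8.39-fold higher with Sf1-Cre (3.07 ± 0.18 log2, limma adjusted p = 3.27e-06), with 2.87 ± 0.21 on arrays labelled Dhh-Cre. Fzd4 and Fzd7 were under the floor in the controls and rose at least 4.27-fold and 4.14-fold with Sf1-Cre and at least 4.64-fold and 3.07-fold on arrays labelled Dhh-Cre. Of 9 tested antagonists, 4 rose and 3 fell with Sf1-Cre, and 4 rose and 2 fell on arrays labelled Dhh-Cre, near the shares of all tested genes with Sf1-Cre. Wif1, which binds Wnt ligands and was under the floor in the controls, rose at least 2.26-fold and 1.41-fold. Apcdd1, a membrane inhibitor, rose by 2.54 and 2.61 log2. Sostdc1, a secreted inhibitor of BMP and Wnt signals, fell at least 2.16-fold in each mutant, to means under the floor. Dkkl1, listed by its Dickkopf-like sequence but known as an acrosomal protein of spermatids, fell as well (-1.95 and -4.01).

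Inside the cell, 6 of 10 tested relay genes rose and 2 fell with Sf1-Cre, and 7 rose and 1 fell on arrays labelled Dhh-Cre, beside the shares given above. The 3 with the largest changes with Sf1-Cre rose and belong to the complex that marks beta-catenin for destruction, Apc (2.08 and 2.34), Amer1 (1.87 and 1.91) and Gsk3b (1.65 and 1.36). Of 10 tested nuclear factors, 8 and 9 rose, among them Tle2, a co-repressor (3.34 and 2.64), Bcl9, a beta-catenin co-activator under the floor in the controls (at least 2.57-fold and 3.13-fold), and Tcf7l2, a DNA-binding partner of beta-catenin (1.80 and 1.66). Of 7 tested target genes, 6 and 5 rose. Axin2, a widely used target of beta-catenin that limits the pathway, was 5.26-fold higher with Sf1-Cre (2.39 ± 0.34 log2, limma adjusted p = 0.000330), with 2.38 ± 0.40 (limma adjusted p = 0.000740) on arrays labelled Dhh-Cre. Fst, the activin antagonist that acts downstream of RSPO1 and WNT4 in the fetal ovary, was under the floor in the controls and rose at least 14.6-fold and 6.05-fold. Bmp2, under the floor in the controls, rose at least 1.54-fold with Sf1-Cre (limma adjusted p = 0.00126). On arrays labelled Dhh-Cre it did not pass (limma adjusted p = 0.0729), with both means under the floor and so no fold.

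**Figure D4:**
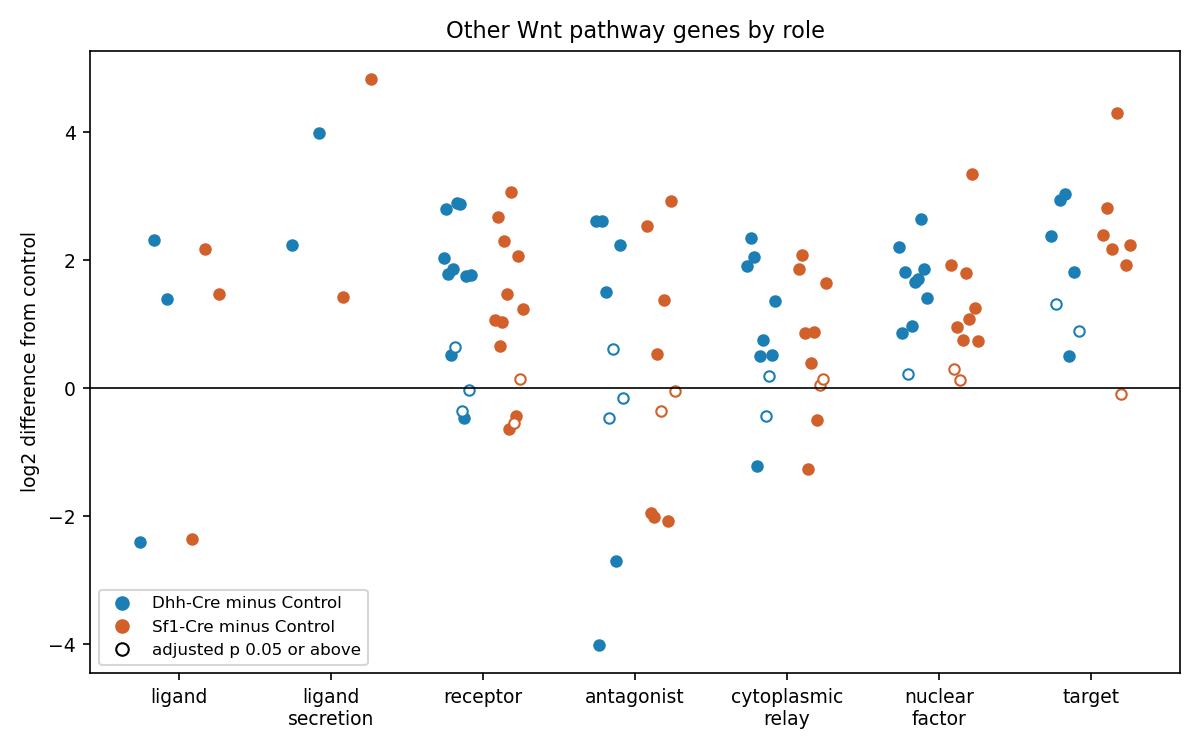
Log2 difference from control of the 54 tested genes of the wider Wnt list, 1 point a gene, grouped by role, with open points where the limma adjusted p was 0.05 or above, for Sf1-Cre and for the arrays labelled Dhh-Cre, which share the control arrays. As deposited most points lie above 0 (37 rose and 8 fell, 38 rose and 5 fell, where 46.6% and 49.1% of all tested genes were called higher), and differences from control means under the floor are not exact; with housekeeping genes as the reference the counts were 16 and 23, and 16 and 17.

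Between the mutants 5 of these 54 genes were higher and 12 lower with Sf1-Cre, where 12.9% of all tested genes were called higher and 11.8% lower. As deposited, the 2 with the largest fitted differences moved in opposite directions from control. The peritubular and endothelial reference moves all differences from control on arrays labelled Dhh-Cre by -3.07, which exceeds the rise of both (2.62 and 2.89). Frzb, also called Sfrp3, was at log2 6.17 and 6.42 in the controls, 8.86 and 8.98 on arrays labelled Dhh-Cre, and 4.39, 4.11, 4.21 and 4.37 with Sf1-Cre. It was thus higher than control in one mutant (2.62 ± 0.17) and lower in the other (-2.02 ± 0.15), and 25.1-fold lower with Sf1-Cre than on arrays labelled Dhh-Cre (-4.65 ± 0.15, limma adjusted p = 6.08e-06). Fzd9, a Frizzled receptor, was at 4.39 and 4.42, at 7.45 and 7.14, and at 3.68, 3.61, 3.88 and 3.89, at least 9.83-fold lower with Sf1-Cre, whose arrays were all under the floor (limma adjusted p = 1.82e-05). Among the others, Axin1 (-1.19), Kremen1 (-0.98) and Porcn (-0.82) were lower and Fst (1.27), Wls (0.84) and Fzd6 (0.51) higher with Sf1-Cre. With the dimmer mean under the floor, Fzd5 was at least 1.92-fold lower and Tnfrsf19 was higher (limma adjusted p = 0.0339). Dkkl1 was higher too (2.07). As deposited, Frzb and the members Sfrp1 and Sfrp4, 3 genes of one family, therefore had different orders of the groups. Sfrp2, of the same family, had means in the order of Sfrp4 (3.54 in controls, 4.16 on arrays labelled Dhh-Cre, 4.92 with Sf1-Cre). Its differences between Dhh-Cre and control and between the mutants did not pass (limma adjusted p = 0.0973 and 0.0727). With housekeeping genes as the reference the Sfrp1 means took the order of Frzb, with 1.39 on arrays labelled Dhh-Cre. The Sf1-Cre difference of -0.09 did not pass there (limma adjusted p = 0.805), so no order below control is shown.

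The genes nearest to 4 members by profile were found as the smallest root mean square distance over the 8 arrays, after each gene's own mean was subtracted. For Rspo1 they were Fut11 (0.10 log2), Mpst (0.15) and Kdelr3 (0.15), and for Wnt4 they were Ephb6 (0.27), Itga5 (0.28) and Cd209g (0.29). For Lef1 they were 4930423M02Rik (0.27), Syngr4 (0.28) and Styxl1 (0.29). Sfrp4 had no gene as near, with Mboat1 (0.88), Rsph4a (0.92) and Epdr1 (0.97). The distance is not scaled by the size of a gene's differences, and Sfrp4 had the largest of these 4 members (8.61 with Sf1-Cre). Its distances are therefore not comparable with those of the others.

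The differences from control depend on the reference chosen for scaling. Of the 13 tested housekeeping genes themselves, 11 rose with Sf1-Cre and 10 on arrays labelled Dhh-Cre. Using them as the reference lowered every difference from control by 1.37 with Sf1-Cre and 1.33 on arrays labelled Dhh-Cre, where the all-gene medians became -1.03 and -0.79. Of called genes 23.2% and 26.8% were then higher, against 6434 higher and 4586 lower, and 6781 and 4206, as deposited. On that scale Rspo1 was higher by 1.85 and 1.64, Wnt4 by 1.31 and 2.09, Wnt6 by 2.98 and 2.97, Fzd1 by 1.30 and 1.72, Fzd2 by 3.64 and 2.19 and Sfrp4 by 7.24 and 2.80. The peritubular and endothelial reference moved the all-gene medians to -2.97 and -2.53, and 2.96% and 2.23% of called genes were higher. Its own tested endothelial genes rose by a median of 3.39 with Sf1-Cre and 2.87 on arrays labelled Dhh-Cre. For its peritubular genes the medians were 1.24 and 2.17. Wnt6 (1.04 and 1.24), Fzd2 (1.70 and 0.45) and Sfrp4 (5.30 and 1.06) had positive values on this scale in both mutants, of which Fzd2 on arrays labelled Dhh-Cre did not pass (limma adjusted p = 0.334). Rspo1 did not (-0.08 and -0.09), nor did Fzd1 (-0.64 and -0.02), and Wnt4 was at -0.63 and 0.35.

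**Figure D5:**
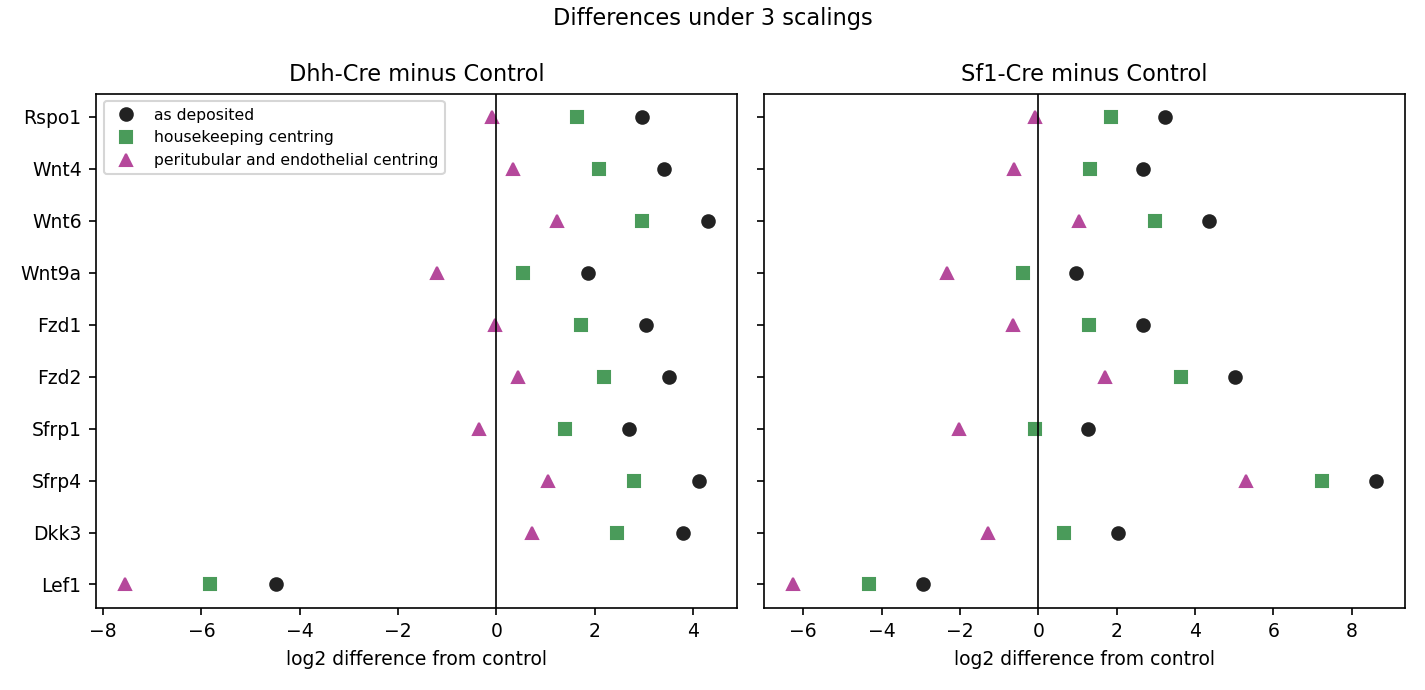
Log2 difference from control of the 10 members as deposited, with 13 housekeeping genes as the reference, and with peritubular and endothelial genes as the reference, for Sf1-Cre and for the arrays labelled Dhh-Cre. Wnt6, Fzd2 and Sfrp4 lie above 0 and Lef1 below 0 on all 3 scales in both comparisons, with Fzd2 at 0.45 and not passing on arrays labelled Dhh-Cre on the last scale, while Rspo1 falls from 3.23 to -0.08 with Sf1-Cre and from 2.97 to -0.09 on arrays labelled Dhh-Cre.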

How the data were processed

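RNA of 8 whole-testis samples was hybridised to 1-colour Affymetrix arrays. The authors deposited linear intensity values per probe set made with GCRMA, per the submitters' processing notes; its version was not given in the sources used here. GCRMA subtracts background by probe sequence and normalizes arrays together, so a change in total RNA content is not kept. The deposited intensity was turned to log2 here. Of 45101 probe sets 34958 named 1 gene, 932 several and 9211 none, and 34754 were matched by Entrez number to RefSeq (GRCm38.p6).

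The probe set with the highest mean stood for each of 18194 genes, and genes at log2 4 (intensity 16) or above on at least 2 arrays were tested (13802). limma 3.58.1 in R 4.3.3 fitted 3 group means to all 8 arrays (5 residual and 2.73 prior degrees of freedom), with Benjamini-Hochberg adjustment over all tested genes; a second fit covered 22539 probe sets. Calls had an adjusted p under 0.05, and errors after ± are SE unless named. The number of arrays, 2 to 4 a group, limits the precision. The script was tested on simulated data. Figures used Python 3.11.15 with matplotlib 3.10.9 and pandas 2.3.3.

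Members, the wider Wnt list and the marker lists were chosen with earlier results of these data known. Named were all members, per role of the wider list the up to 3 genes that passed with the largest change with Sf1-Cre, up to 5 each way between the mutants, the 3 nearest profiles for each of 4 members, and Dmrt1 and Spink8 as checks. Arrays were grouped by their labels, and 21 alternative settings were tried for each comparison.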

Additional observations from a re-analysis of the deposited data

Results flagged for a closer look

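Differences from the same control arrays were unequal between the mutant groups for 5 members, by limma's test of Sf1-Cre against the arrays labelled Dhh-Cre. Sfrp4 stood 4.48 log2 higher and Fzd2 1.49 higher with Sf1-Cre. Dkk3 stood at -1.76, Sfrp1 at -1.43 and Wnt9a at -0.90. Leaving out 1 array labelled Dhh-Cre, which leaves 1 in that group, ended the calls of Fzd2 (1.49 in both cases), Sfrp1 (-0.90 without Dhh-Cre 2) and Wnt9a (-0.72 without Dhh-Cre 1). By Dixon's test none of the 10 members had an array far from the others among the 4 Sf1-Cre arrays, where chance flags about 1 in 20 groups.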

How the results depend on the processing

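Of 618 comparisons of a single gene with an alternative setting, 577 kept direction and side of the threshold, 17 no longer passed, 4 newly passed and 20 changed sign. Against control, the members' counts kept within 1.5 times of 9 higher and 1 lower in 20 of 21 alternatives. Most of these leave the scaling unchanged, and the housekeeping reference, with 6 higher with Sf1-Cre, stood at that limit. The exception was the peritubular and endothelial reference, with 3 higher and 5 lower with Sf1-Cre and 2 and 2 in the arrays labelled Dhh-Cre. There the Sf1-Cre differences were -0.08 for Rspo1, -0.63 for Wnt4, -2.34 for Wnt9a, -0.64 for Fzd1, -2.03 for Sfrp1 and -1.27 for Dkk3. In the arrays labelled Dhh-Cre they were -0.09 for Rspo1, -1.20 for Wnt9a, -0.02 for Fzd1, -0.35 for Sfrp1 and -1.51 for Dmrt1. The wider list then had 2 higher and 47 lower, and 1 and 41. With the housekeeping reference Wnt9a (-0.40) and Sfrp1 (-0.09) changed sign with Sf1-Cre, and the wider list had 16 higher and 23 lower, and 16 and 17. The lower count of the wider list, 8 with Sf1-Cre and 5 in the arrays labelled Dhh-Cre, was 23 and 19 with no filter, which tests more genes, and 5 and 2 with a filter at log2 6, which tests fewer. In the arrays labelled Dhh-Cre it was 8 with the mean of all probe sets. Without single replicates it ranged from 5 to 8 and from 2 to 5, and was lowest without either control.

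Between the mutants fewer calls held, and leaving out an array labelled Dhh-Cre leaves 1 in that group. Members called higher were 1 at an adjusted p under 0.01, from 1 to 3 without single replicates (1 without either array labelled Dhh-Cre), and 1 without the arrays high in Spink8. Members called lower were 1 with a filter at log2 6, with the mean of all probe sets, and without the arrays high in Spink8. The wider list's 5 higher were 0 at an adjusted p under 0.01, 3 with quantile normalization, 2 with the peritubular and endothelial reference or the mean of all probe sets, from 0 to 7 without single replicates (0 without Dhh-Cre 1, 1 without Dhh-Cre 2, 2 without Sf1-Cre 3), and 0 without the arrays high in Spink8. Its 12 lower were 3 at an adjusted p under 0.01, 7 with the mean of all probe sets, from 3 to 13 without single replicates (3 without Dhh-Cre 1, 6 without Dhh-Cre 2), and 2 without the arrays high in Spink8. The Wnt4 difference of -0.74 became 0.12 without Dhh-Cre 1 and 0.31 without the arrays high in Spink8. The Wnt6 difference of 0.04 became -0.20 with the peritubular and endothelial reference, -0.07 with the mean of all probe sets, and it ranged from -0.14 (without Dhh-Cre 1) to 0.23 (without Dhh-Cre 2) without single replicates, with -0.02 without Sf1-Cre 3 and -0.10 without Sf1-Cre 4. Lef1 newly passed with the peritubular and endothelial reference (1.31), the mean of all probe sets (1.06) and the replicate block (2.21). Where no construction is named, the cause was not tested.

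The labels do not say that replicate numbers pair samples, and deviations of same-numbered arrays correlated at -0.19 to 0.38, so the numbers were not used as pairs. With the replicate block Sfrp1 did not pass with Sf1-Cre (1.13, limma adjusted p = 0.0543) or between the mutants (-1.59, limma adjusted p = 0.0511), Wnt6 was at -0.26 between them, and the wider list had 2 higher there.

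With 2 control arrays, and 7 of 10 control means under the floor, most folds are lower bounds. Probe sets under the floor in both groups give no fold.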

Other observations

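The genes of the wider Wnt list that reached log2 4 on fewer than 2 arrays were mostly ligands and secreted inhibitors. The 17 ligand genes were Wnt1, Wnt2b, Wnt3, Wnt3a, Wnt7a, Wnt7b, Wnt8a, Wnt8b, Wnt9b, Wnt10a, Wnt10b, Wnt11, Wnt16, Rspo2, Rspo3, Rspo4 and Ndp. The inhibitors were Dkk1, Dkk2, Dkk4, Draxin, Notum, Sfrp5 and Sost. The receptor genes were Fzd10, Lgr5, Ptk7 and Ror1, and Apc2, Dvl3, Pygo1 and Sp5 were the rest of the 32. No level is given for these probe sets in any group.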
